A study of Mus musculus with 12 samples.

Results

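The genes described here encode 10 channels that open, or are proposed to open, when a membrane is stretched or sheared: Piezo1, Piezo2, Tmem63a, Tmem63b, Trpm7, Trpv4, Trpc1, Pkd1, Pkd2 and Kcnk2. They are 10 of the 54532 genes in the deposited tables, each matched by its name and each present in 1 row only. The rule that matched them used names only. RNA came from whole small intestine of C57BL/6J mice, and the 4 groups of 3 libraries cross genotype with condition. Mice labelled flox carried a floxed Piezo1 gene, and mice labelled CKO carried a Piezo1 knockout specific to intestinal epithelial cells. Both genotypes were sampled as control tissue and after induction of necrotizing enterocolitis (NEC), an inflammatory and necrotic disease of the immature bowel. The 4 groups are named flox control, CKO control, flox NEC and CKO NEC below. The sources used here do not give the Cre driver, the exons between the loxP sites, the age of the mice, the way NEC was induced or whether a library is 1 animal. Statistical errors therefore cover the spread between these libraries, which may in part be technical.

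Mechanically gated channels turn tension in the membrane into an ion current. Piezo1 and Piezo2 form large trimeric cation channels that let calcium into the cell, Piezo1 being broadly expressed in epithelium, endothelium, muscle and red cells, and Piezo2 being best known from sensory neurons and enteroendocrine cells. The TMEM63 proteins are relatives of the plant OSCA channels and act as osmosensitive or stretch-sensitive cation channels. TRPM7 joins a channel for magnesium, calcium and zinc to a kinase domain, TRPV4 opens on swelling, heat and lipid messengers, and TRPC1 takes part in store-operated and receptor-operated calcium entry. Polycystin-1 (Pkd1) and polycystin-2 (Pkd2) meet in a complex of the primary cilium, and KCNK2, also called TREK-1, is a potassium channel opened by stretch.

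The main pattern ran along the condition. In flox tissue Piezo1 was 4.89 times as high after NEC as in control tissue, and in CKO tissue it was 3.49 times as high. Tmem63b and Tmem63a also rose in both genotypes, by factors between 1.75 and 2.28. Trpm7, the most abundant of the genes in control tissue, did not pass the test in either genotype. Between the genotypes none of the channel genes tested passed, 9 in NEC and 6 in control tissue. Of all genes tested 0.00% passed in NEC and 0.00752% in control tissue. In a fit without a filter on the level none of the 10 passed either. Mean Piezo1 in CKO NEC tissue was still 0.670 times the flox level.

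Promoter sequence is shown for 2 of the genes, which lie far apart in their response to NEC: Piezo1, with the highest ratio in flox tissue, and Trpm7, which did not pass the test in either genotype. Each run is the 250 bases before the gene start as RefSeq gives it on GRCm38.p6, read 5′ to 3′ on the gene's own strand. This start can differ from the GENCODE M21 coordinates given for each gene further on, and both windows shown lie wholly outside the gene in that annotation. The capitals mark a GC box (GGGCGG on either strand) or a TATA box (TATAAA on either strand). The Piezo1 run lies at chr8:122551330-122551579 on the minus strand and the Trpm7 run at chr2:126876262-126876511 on the minus strand.
Piezo1: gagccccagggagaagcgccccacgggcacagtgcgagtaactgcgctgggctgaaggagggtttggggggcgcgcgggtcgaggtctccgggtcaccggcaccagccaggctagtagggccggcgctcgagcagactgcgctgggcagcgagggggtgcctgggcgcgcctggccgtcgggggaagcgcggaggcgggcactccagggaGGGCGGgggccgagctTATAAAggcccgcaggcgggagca
Trpm7: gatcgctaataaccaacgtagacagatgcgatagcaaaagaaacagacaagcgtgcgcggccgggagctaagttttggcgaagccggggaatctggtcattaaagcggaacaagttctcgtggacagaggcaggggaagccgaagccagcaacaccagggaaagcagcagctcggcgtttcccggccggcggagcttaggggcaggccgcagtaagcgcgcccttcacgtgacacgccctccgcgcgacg

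The Piezo1 window had 74.0% G and C and 26 CpG pairs and the Trpm7 window 60.4% and 26, beside medians of 52.4% and 6 CpG pairs over the 32851 RefSeq promoter windows of the same length. Piezo1 had 1 GC box and 1 TATA box, and Trpm7 had neither motif. A GC box occurred in 32.7% of all windows and a TATA box in 12.4%. RefSeq windows were found for 9 of the 10 genes, and Piezo2 is named only. Some windows reach into the gene as GENCODE M21 draws it: by all 250 bases for Tmem63b and for 3 of the 4 Kcnk2 windows, 174 for Tmem63a, 116 for Pkd1, 27 for Trpc1 and 7 for Pkd2. With that limit, Pkd1 had 4 GC boxes, Trpc1 3, Tmem63b and Trpv4 2 each and Tmem63a 1, and 1 of the 4 Kcnk2 windows had 1. The AP-1 letters TGANTCA, present in 6.75% of all windows, were found in 1 Kcnk2 window. The TEAD letters GGAATG, present in 12.6%, were found in the Pkd2 window and in 1 Kcnk2 window. These motifs were searched on both strands, and a match describes the letters and not a bound site.

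Levels are given as FPKM, which divides the fragments counted by gene length and library size and so allows genes of different length to be set side by side. The control and NEC libraries were deposited in 2 tables that the authors had scaled separately, so levels that cross the tables are given as FPKM rescaled jointly over the 12 libraries. Depth was 13057724 to 16821130 reads per library. Enterocyte markers summed to between 7010 and 28377 rescaled FPKM over 8 genes, most of it from the apolipoprotein genes Apoa1 (at least 2298 in every library) and Apoa4 (at least 2043). The enterocyte marker Fabp1 varied widely within groups, from 0.515 to 792 in flox control and from 2.34 to 589 in CKO NEC. The neutrophil marker Cxcr2 was at 0 reads in all flox control libraries and the pancreatic marker Prss1 was at 0 in all 12. Mitochondrially encoded genes took 11.1% to 14.3% of reads in flox control, 5.11% to 6.76% in CKO control and 3.47% to 4.52% in the NEC libraries. Condition and table coincide and cannot be told apart.

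Piezo1 (ENSMUSG00000014444) lies on chromosome 8 from 122481698 to 122551329 on the minus strand of GRCm38, with up to 51 exons in a transcript and 9935 bases of exon in all. In flox control it stood at 1.42, 1.48 and 1.12 rescaled FPKM in libraries 1, 2 and 3. In CKO control it stood at 1.76, 1.06 and 0.953. The 2 control groups overlapped, and the highest of these 6 values belonged to a library labelled CKO. In flox NEC the values were 6.76, 6.66 and 6.25, and in CKO NEC they were 4.98, 5.14 and 3.05. Every CKO NEC library was below every flox NEC library, and every NEC library of either genotype was above every control library. These levels rest on 132 to 255 reads per control library and 455 to 1037 per NEC library. The gene value sums reads over all exons of whole tissue, so it does not separate epithelial from other cells or deleted from retained exons.

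**Figure D1:**
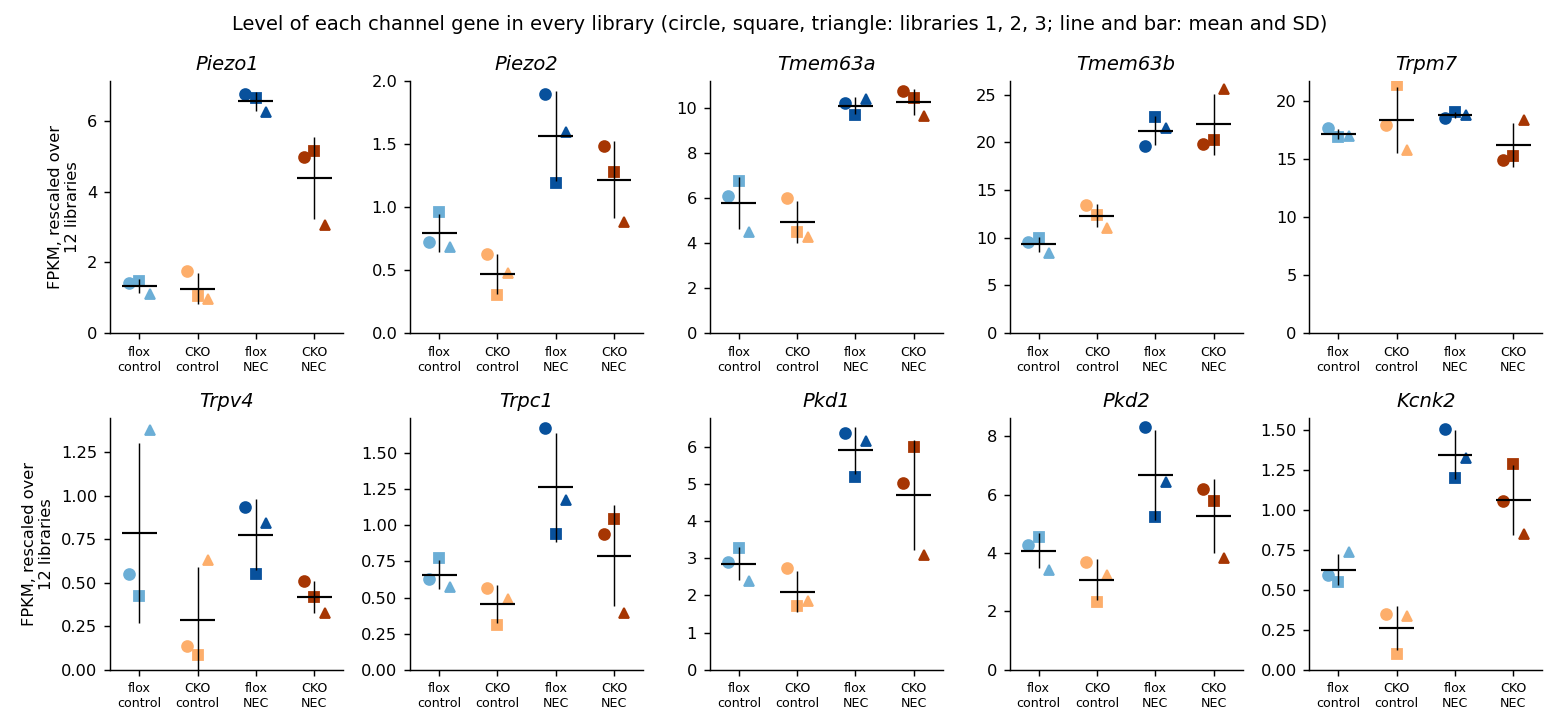
Level of the 10 channel genes in each library, in FPKM rescaled over the 12 libraries (y axis, linear, from 0), for the 4 groups on the x axis; symbols are libraries 1, 2 and 3, and the line and bar are the mean and SD. Piezo1 sits between 0.953 and 1.76 in control tissue and between 3.05 and 6.76 in NEC tissue, while Trpm7 sits between 14.9 and 21.4 in all 4 groups.

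Against the other expressed genes, Piezo1 moved from a low to a middle rank. Among genes with at least 1 rescaled FPKM in at least 3 libraries, 15.2% were below mean Piezo1 in flox control and 55.7% in flox NEC. The shares were 17.2% in CKO control and 44.3% in CKO NEC. Mean Piezo1 was 1.34 ± 0.196 (SD, n = 3) in flox control, 1.26 ± 0.438 in CKO control, 6.56 ± 0.274 in flox NEC and 4.39 ± 1.16 in CKO NEC. The spread among CKO NEC libraries was the widest of the 4, with library 3 well below the other two.

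Its relative Piezo2 (ENSMUSG00000041482, chromosome 18, 63010213 to 63387183, minus strand) was the scarcer of the pair in all 12 libraries. Its rescaled FPKM was 0.726, 0.964 and 0.684 in flox control and 0.626, 0.303 and 0.478 in CKO control. It was 1.90, 1.19 and 1.60 in flox NEC and 1.48, 1.28 and 0.882 in CKO NEC. Both NEC groups lay above their own control group, and in control tissue every CKO library lay below every flox library. Only 62 to 413 reads per library stand behind these values.

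The osmosensitive channel gene Tmem63b (ENSMUSG00000036026, chromosome 17, 45660171 to 45686905, minus strand) was the most abundant of the 10 in NEC tissue. It measured 9.59, 9.94 and 8.44 in flox control and 13.5, 12.4 and 11.1 in CKO control. It measured 19.6, 22.7 and 21.5 in flox NEC and 19.8, 20.3 and 25.6 in CKO NEC. All 3 CKO control libraries exceeded all 3 flox control libraries, whereas the NEC groups overlapped. Library 3 of CKO NEC, which held the lowest Piezo1 of its group, held the highest Tmem63b.

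Tmem63a (ENSMUSG00000026519, chromosome 1, 180942344 to 180975112, plus strand), a second member of the family, was lower than Tmem63b in every library. Its values were 6.09, 6.75 and 4.51 in flox control, and 6.00, 4.50 and 4.28 in CKO control. After NEC they were 10.2, 9.69 and 10.4 in flox and 10.7, 10.5 and 9.63 in CKO. The 6 NEC libraries fell within a narrow band above all 6 control libraries, and the genotypes overlapped in both conditions.

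Trpm7 (ENSMUSG00000027365, chromosome 2, 126791565 to 126876230, minus strand), the channel with its own kinase, was read 2482 to 3396 times per library and was the best measured of the 10. It stood at 17.6, 16.9 and 17.0 in flox control and at 17.9, 21.4 and 15.7 in CKO control. It stood at 18.6, 19.0 and 18.8 in flox NEC and at 14.9, 15.3 and 18.4 in CKO NEC. The flox NEC libraries were tight and just above flox control, while the CKO groups were wider and overlapped each other.

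The swelling-gated Trpv4 (ENSMUSG00000014158, chromosome 5, 114622152 to 114658421, minus strand) had 5 to 79 reads per library. It measured 0.549, 0.426 and 1.38 in flox control and 0.135, 0.0873 and 0.634 in CKO control. It measured 0.937, 0.548 and 0.844 in flox NEC and 0.512, 0.418 and 0.327 in CKO NEC. In both control groups library 3 was far above the other libraries, and control and NEC overlapped in each genotype.

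Trpc1 (ENSMUSG00000032839, chromosome 9, 95705082 to 95750375, minus strand), of the canonical TRP family, measured 0.625, 0.770 and 0.576 in flox control and 0.564, 0.310 and 0.491 in CKO control. It measured 1.68, 0.938 and 1.18 in flox NEC and 0.937, 1.05 and 0.390 in CKO NEC. The flox groups separated by condition and the CKO groups did not, with CKO NEC library 3 among the control values.

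The polycystins were of middle abundance. Pkd1 (ENSMUSG00000032855, chromosome 17, 24549834 to 24596508, plus strand) measured 2.89, 3.28 and 2.39 in flox control and 2.74, 1.71 and 1.86 in CKO control. It measured 6.37, 5.18 and 6.15 in flox NEC and 5.04, 5.98 and 3.09 in CKO NEC. Both genotypes separated by condition, by a narrow margin in CKO, where the lowest NEC library was 1.13 times the highest control library.

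Pkd2 (ENSMUSG00000034462, chromosome 5, 104459450 to 104505819, plus strand), the channel-forming partner, measured 4.27, 4.55 and 3.42 in flox control and 3.70, 2.31 and 3.24 in CKO control. It measured 8.33, 5.24 and 6.43 in flox NEC and 6.19, 5.77 and 3.82 in CKO NEC. Again both genotypes separated by condition, in CKO with the lowest NEC library only 1.03 times the highest control library.

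The stretch-activated potassium channel gene Kcnk2 (ENSMUSG00000037624, chromosome 1, 189207930 to 189402273, minus strand) had 7 to 111 reads per library. It measured 0.590, 0.548 and 0.734 in flox control and 0.347, 0.101 and 0.334 in CKO control. It measured 1.5, 1.2 and 1.32 in flox NEC and 1.06, 1.28 and 0.848 in CKO NEC. All CKO control libraries lay below all flox control libraries, and both NEC groups lay above all 6 control libraries.

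The order of the levels changed with NEC at its top, where Tmem63b and Trpm7 traded places in both genotypes. Places also changed among the scarce genes and, in flox, between Piezo1 and Pkd1, in part between genes that overlapped. In flox control it ran from Trpm7 over Tmem63b, Tmem63a, Pkd2, Pkd1 and Piezo1 to Piezo2, Trpv4, Trpc1 and Kcnk2. Of these neighbours, Tmem63a and Pkd2 overlapped, and so did each neighbouring pair among the last 4 genes. In flox NEC the order was Tmem63b, Trpm7, Tmem63a, Pkd2, Piezo1, Pkd1, Piezo2, Kcnk2, Trpc1 and Trpv4. There Piezo1 overlapped Pkd2 and Pkd1, its neighbours on either side, and Piezo2, Kcnk2 and Trpc1 overlapped in turn. The CKO groups had the same 6 genes in the upper part of the order, with Piezo1 the sixth in both conditions. Summed over the 10 genes, the level was 40.3 to 45.6 rescaled FPKM in flox control, 39.1 to 47.3 in CKO control, 72.3 to 75.8 in flox NEC and 65.7 to 67.0 in CKO NEC. Piezo1 made up 2.78% to 3.26% of that sum in flox control and 8.39% to 9.21% in flox NEC, against 2.40% to 3.72% in CKO control and 4.62% to 7.68% in CKO NEC. The share of Trpm7 was 37.0% to 42.2% in flox control and 24.5% to 26.3% in flox NEC.

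The comparison of NEC with control asked how the channel genes stood in diseased tissue of each genotype. It was fitted with limma on log2(rescaled FPKM + 1), for genes with at least 1 FPKM in at least 3 of the 6 libraries, with Benjamini-Hochberg adjustment over all genes tested and a threshold of 0.05. In flox tissue 28.6% of 13798 genes tested rose and 27.7% fell. In CKO tissue 17.4% of 13420 rose and 20.3% fell. On the deposited scaling the same tests gave 4906 genes higher and 3123 lower in flox, in place of 3950 and 3822, and 3140 higher and 2062 lower in CKO, in place of 2331 and 2727.

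Piezo1 rose by 1.69 ± 0.11 on the log2 scale (SE, 95% interval 1.43 to 1.96, limma adjusted p = 8.72e-05) in flox tissue. In CKO tissue it rose by 1.25 ± 0.22 (0.74 to 1.75, limma adjusted p = 0.00615). Its change was above that of 98.6% of the genes tested in flox and 97.1% in CKO. Both genes for TMEM63 channels rose in both genotypes. Tmem63b rose by 1.11 ± 0.11 in flox (limma adjusted p = 2.39e-04) and by 0.78 ± 0.14 in CKO (limma adjusted p = 0.00742). Tmem63a rose by 0.73 ± 0.14 in flox (limma adjusted p = 0.00389) and by 0.94 ± 0.14 in CKO (limma adjusted p = 0.00425). These 3 genes passed the threshold in both genotypes under each of the 12 alternatives tried per comparison.

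**Figure D2:**
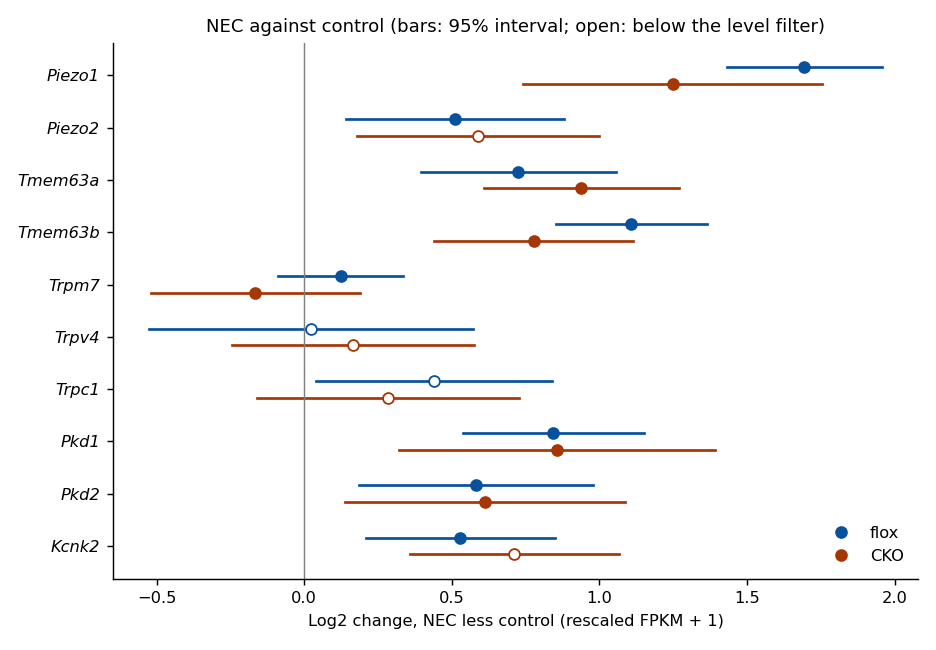
Log2 change of each channel gene from control to NEC tissue (x axis, rescaled FPKM + 1) in flox and in CKO, with 95% intervals as bars; open points are genes below the level filter, from the fit without it. Piezo1 lies furthest to the right in both genotypes, at 1.69 and 1.25, and the intervals of Trpm7 and Trpv4 span 0 in both.

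Trpm7 differed by 0.12 ± 0.09 in flox (-0.09 to 0.33, limma adjusted p = 0.277) and by -0.16 ± 0.15 in CKO (-0.52 to 0.19, limma adjusted p = 0.419). The flox value passed only on the deposited scaling, at 0.27 (limma adjusted p = 0.0335). Its change was above that of 55.6% of the genes tested in flox and 40.4% in CKO, near the middle of all genes.

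The polycystin genes rose in the fits as set out, less firmly in CKO. Pkd1 rose by 0.84 ± 0.13 in flox (limma adjusted p = 0.00144) and by 0.86 ± 0.23 in CKO (limma adjusted p = 0.0243). The CKO call was lost without CKO control library 2 or 3 or CKO NEC library 1 or 2 (limma adjusted p = 0.0649 to 0.0785) and without the level filter (0.0687). Pkd2 rose by 0.58 ± 0.17 in flox (limma adjusted p = 0.0215) and by 0.61 ± 0.20 in CKO (limma adjusted p = 0.0492). The flox call was lost without flox NEC library 1 (limma adjusted p = 0.0637), without flox NEC library 3 (0.0545) and without the filter (0.0570). The CKO call was lost in 9 of 12 alternatives, with limma adjusted p up to 0.145.

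The 4 scarce genes met the filter unevenly. In flox, Piezo2 and Kcnk2 met it only through the NEC libraries, and Trpv4 and Trpc1 did not meet it. In CKO none of the 4 met it. In flox, Piezo2 differed by 0.51 ± 0.16 (limma adjusted p = 0.0267) and Kcnk2 by 0.53 ± 0.14 (limma adjusted p = 0.0132). Since only high NEC values brought these genes into the fit, the values are a description, and neither gene met the filter when any 1 flox NEC library was left out. The Piezo2 value also missed the threshold with no filter (limma adjusted p = 0.0696), with a replicate block (0.0626), and without flox control library 1 (0.0682) or 3 (0.0538). On the deposited scaling Trpc1 met the filter in flox as well, likewise through the NEC libraries, and differed by 0.52 ± 0.17 (limma adjusted p = 0.0312). On that scaling, which sets NEC values 0.15 log2 higher, all 9 of the channel genes fitted in flox passed, and 5 of 6 in CKO. Trpv4 was not fitted. Over all genes 8029 passed on it in flox and 5202 in CKO, counting both directions. The channel genes that passed on it all rose. Over all genes, too, more rose and fewer fell on this scaling than on the rescaled values, as given above. Piezo2, Kcnk2 and Trpc1 were fitted in flox only through the NEC libraries, so the count is a description. To account for all 10 genes, the fit was repeated with no filter on the level. Of the 10, 5 then rose in flox (Piezo1, Tmem63a, Tmem63b, Pkd1 and Kcnk2), where 12.7% of 29715 genes did. In CKO 4 rose (Piezo1, Tmem63a, Tmem63b and Kcnk2), where 5.84% of 29737 did. None of the 10 fell in either, where 12.5% of genes fell in flox and 7.05% in CKO. These shares are lowered by the many genes below the filter that this fit takes in. With the filter, 28.6% of genes rose and 27.7% fell in flox, and 17.4% and 20.3% in CKO. Without the filter Kcnk2 differed by 0.71 ± 0.15 in CKO (limma adjusted p = 0.0294), Piezo2 by 0.59 ± 0.17 in CKO (0.0728), and Trpc1 by 0.44 ± 0.16 in flox (0.110) and 0.28 ± 0.18 in CKO (0.386). Trpv4 differed by 0.02 ± 0.23 in flox (limma adjusted p = 0.953) and by 0.17 ± 0.17 in CKO (0.559).

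By library, 9 of the 10 genes had every flox NEC value above every flox control value, the exception being Trpv4. Over all genes tested 33.2% separated upward and 31.5% downward. In CKO 7 of the 10 separated upward and none downward, with Trpm7, Trpv4 and Trpc1 overlapping, against 25.0% upward and 28.6% downward over all genes tested. These shares cover only genes that met the level filter. Trpc1 in flox and Piezo2 and Kcnk2 in CKO did not meet it, so they stand outside the shares. In flox, Piezo2 and Kcnk2 met it only through the NEC libraries. Of the channel genes tested in CKO, only Trpm7 overlapped. On linear means the flox ratios ran from 0.989 for Trpv4 to 4.89 for Piezo1, with 1.97 for Piezo2, 1.92 for Trpc1 and 2.15 for Kcnk2. The CKO ratios ran from 0.883 for Trpm7 to 4.08 for Kcnk2, whose CKO control values rest on 7 to 25 reads.

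The comparison of CKO with flox asked what the epithelial Piezo1 knockout went with in each condition. It was fitted on deposited FPKM within each table, on libraries that also enter the comparison of the conditions. In NEC tissue no gene of 13673 passed the threshold (0.00% called by limma), and 599 genes (4.38%) had an unadjusted p under 0.05. Piezo1 differed by -0.53 ± 0.18 on the log2 scale (95% interval -0.94 to -0.11, unadjusted p = 0.0192, limma adjusted p = 0.840). Without CKO NEC library 3 the difference was -0.32 (-0.57 to -0.08), and without any other library it lay between -0.64 and -0.51. In this fit 2.09% of the genes tested had a lower difference than Piezo1.

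In control tissue 1 gene of 13300 passed (0.00752% called by limma), the predicted gene Gm25637, which is no channel gene and was named after its value was seen. There 3849 genes (28.9%) had an unadjusted p under 0.05. Piezo1 differed by -0.06 ± 0.19 (-0.50 to 0.37, limma adjusted p = 0.846). The interval spans 0 and reaches close to the difference measured in NEC. The difference between the 2 genotype effects was -0.46 ± 0.25 (-1.02 to 0.09, limma adjusted p = 0.325). In that interaction 1.22% of 14808 genes passed, and none of the 9 channel genes fitted did. These totals depend strongly on the setting. The 181 interaction genes became 24 with equal medians, 646 without flox control library 3, 307 without CKO control library 3 and as few as 0 without another library. The 1 gene in control tissue became 903 with a replicate block, 360 with limma-voom and 830 without flox control library 3. No channel gene passed in any of these fits.

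**Figure D3:**
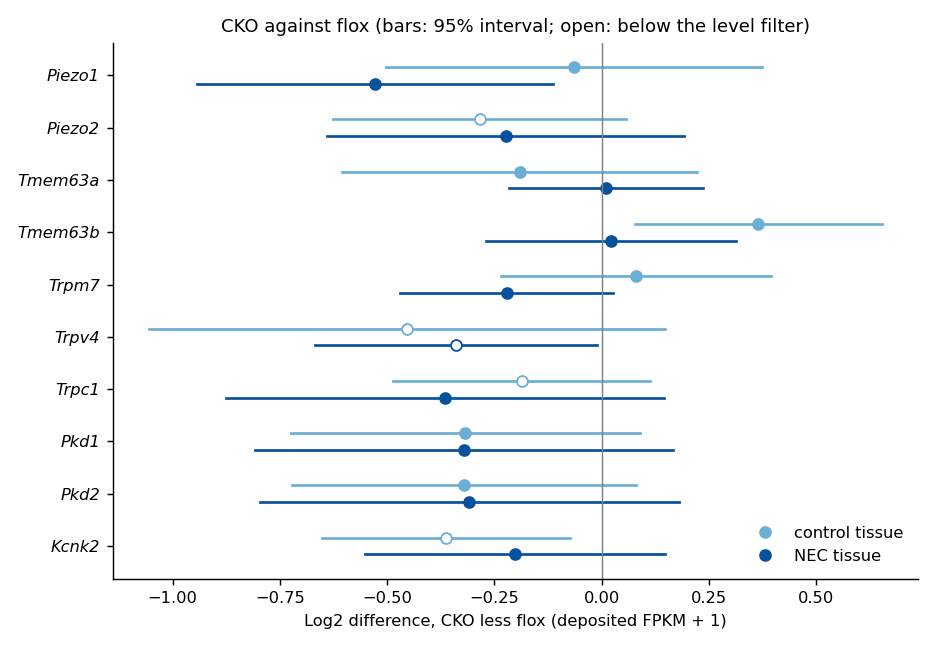
Log2 difference of CKO from flox for each channel gene (x axis, deposited FPKM + 1) in control and in NEC tissue, with unadjusted 95% intervals as bars; open points are genes below the level filter, from the fit without it. Piezo1 in NEC lies lowest of the NEC points at -0.53, and Tmem63b in control lies highest at 0.37.

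Tmem63b had the highest genotype difference among the 10 in control tissue, at 0.37 ± 0.12 (0.08 to 0.65, unadjusted p = 0.0197, limma adjusted p = 0.109). In NEC tissue it differed by 0.02 ± 0.12 (-0.27 to 0.31). The interaction for Tmem63b was -0.34 ± 0.17 (-0.71 to 0.03, limma adjusted p = 0.275). Its relative Tmem63a differed by -0.19 ± 0.18 in control (-0.60 to 0.22) and by 0.01 ± 0.10 in NEC (-0.22 to 0.24). Neither NEC interval reaches as far below 0 as the difference measured for Piezo1.

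Trpm7 differed by 0.08 ± 0.13 in control (-0.23 to 0.40) and by -0.22 ± 0.11 in NEC (-0.47 to 0.03). Pkd1 differed by -0.32 in both conditions (-0.72 to 0.09 in control and -0.81 to 0.17 in NEC). Pkd2 differed by -0.32 in control (-0.72 to 0.08) and by -0.31 in NEC (-0.80 to 0.18). The intervals of the polycystins hold 0 and also differences larger than that of Piezo1 in NEC, so 3 libraries a group did not resolve a genotype difference of that size.

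The remaining genes had differences below 0 in both conditions without passing the test. In NEC, Piezo2 differed by -0.22 (-0.64 to 0.19), Trpc1 by -0.37 (-0.88 to 0.14), Kcnk2 by -0.20 (-0.55 to 0.15) and, with no filter, Trpv4 by -0.34 (-0.67 to -0.01). In control, with no filter, Kcnk2 differed by -0.36 (-0.65 to -0.07), Piezo2 by -0.28 (-0.63 to 0.06), Trpv4 by -0.45 (-1.05 to 0.15) and Trpc1 by -0.19 (-0.49 to 0.11). Limma adjusted p lay between 0.840 and 0.988 for the 9 channel genes fitted in NEC. By means, 8 of the 10 genes were lower in CKO in either condition, where the fitted difference was below 0 for 47.5% of the genes tested in NEC and for 45.6% in control, the exceptions being Tmem63a and Tmem63b in NEC and Tmem63b and Trpm7 in control. The fitted difference was below 0 for 7 of the 9 channel genes tested in NEC and for 4 of 6 in control. By library, Piezo1, Trpm7 and Trpv4 separated downward in NEC and none upward, where 6.14% of all genes tested separated downward and 4.83% upward. Trpv4 did not meet the level filter and stands outside these shares. In control Piezo2, Trpc1 and Kcnk2 separated downward and Tmem63b upward, where 12.7% of all genes tested separated downward and 21.8% upward. Piezo2, Trpc1 and Kcnk2 did not meet the filter in control and stand outside these shares. Of the channel genes tested there, none separated downward.

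Related channels were also set against each other within each library, which reduces any factor common to both genes. The 0.1 added to each FPKM keeps such a factor from cancelling exactly, most of all at low levels. The log2 ratio of Piezo1 to Piezo2 (deposited FPKM + 0.1) averaged 0.69 ± 0.16 (SD, n = 3) in flox control, 1.25 ± 0.34 in CKO control, 2.03 ± 0.33 in flox NEC and 1.77 ± 0.14 in CKO NEC. With 0.1 added, all 6 NEC libraries, at 1.69 to 2.40, lay above all 6 control libraries, at 0.57 to 1.52. That separation rests on the added value. CKO control library 2 had deposited FPKM of 1.03 for Piezo1 and 0.295 for Piezo2, and CKO NEC library 1 had 5.38 and 1.60. Without the 0.1 the ratio was higher in that control library, so the conditions overlapped. The ratio of Tmem63a to Tmem63b averaged -0.70 ± 0.17 in flox control, -1.32 ± 0.15 in CKO control, -1.06 ± 0.15 in flox NEC and -1.08 ± 0.28 in CKO NEC. The control genotypes did not overlap in that ratio and the NEC genotypes did. The ratio of Pkd1 to Pkd2 averaged -0.50 ± 0.04 in flox control, -0.53 ± 0.20 in CKO control, -0.15 ± 0.20 in flox NEC and -0.18 ± 0.20 in CKO NEC. Every flox NEC library was above every flox control library in it, and every CKO NEC library was above every CKO control library.

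**Figure D4:**
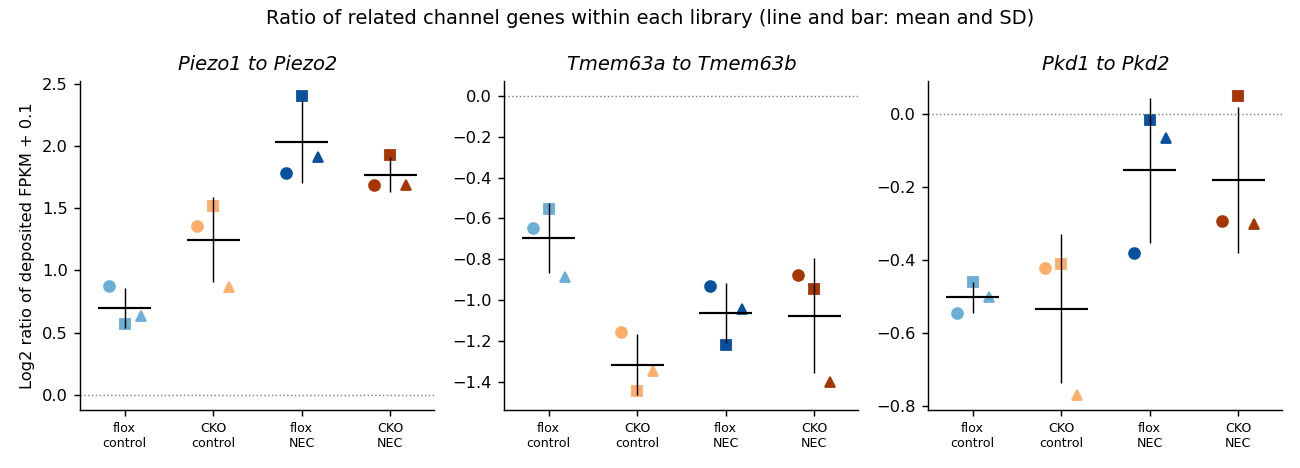
Log2 ratio of deposited FPKM + 0.1 (y axis) between related channel genes within each library, for the 4 groups; symbols are libraries 1, 2 and 3, the line and bar are the mean and SD, and the dotted line marks equal levels. With the 0.1 added, the ratio of Piezo1 to Piezo2 is 0.57 to 1.52 in control and 1.69 to 2.40 in NEC libraries, a gap that is absent without it.

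Single libraries stood low across several channel genes. Library 3 of CKO NEC held the lowest value of its group for 8 of the 10 genes, the exceptions being Tmem63b and Trpm7. In the other groups, flox control library 3 and flox NEC library 2 were each lowest for 7 genes and CKO control library 2 for 6. The same CKO libraries were the lowest of all in their condition for smooth muscle markers, whose 8 genes summed to 192 rescaled FPKM in CKO control library 2 and to 529 in CKO NEC library 3. The other CKO libraries had 555 and 615 in control, and 1705 and 2076 in NEC. In flox, NEC library 2 had the lowest sum of its group, at 1833, but control library 3, at 716, was above library 1, at 701. How often a library was lowest over all genes was not counted, and a link between these markers and the channel genes was not tested.

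Markers of cells other than the epithelium changed with NEC in both directions, while Piezo1 rose. The background is 28.6% of all genes rising and 27.7% falling in flox, and 17.4% and 20.3% in CKO. In flox tissue 6 of 8 smooth muscle markers rose with NEC and 1 fell (median change of 1.07, against 0.01 over all genes tested), 7 of 8 fibroblast markers rose (1.25), and 4 of 6 endothelial markers rose (0.92). In CKO tissue 1 of 7 smooth muscle markers tested rose, near the background share, with a median of 1.22 against -0.02 over all genes. There 7 of 8 fibroblast (1.64) and 5 of 6 endothelial markers (0.81) rose. Of 6 macrophage markers 1 rose and 3 fell in flox (-0.49), and of 5 tested in CKO 0 rose and 3 fell (-0.58). Of 8 markers of enteric neurons and glia 0 rose and 2 fell in flox (-0.35), and of 7 tested in CKO 0 rose and 1 fell (-0.13). Of the 8 enterocyte markers 4 fell and 1 rose in flox (-0.64), and 3 fell and none rose in CKO (-1.08). Summed smooth muscle markers were 701 to 897 in flox control, 192 to 615 in CKO control, 1833 to 2888 in flox NEC and 529 to 2076 in CKO NEC. Summed fibroblast markers were 174 to 322, 65.6 to 185, 493 to 672 and 315 to 533 in the same order, and endothelial markers 15.2 to 28.8, 15.8 to 21.9, 38.4 to 46.3 and 32.2 to 40.5. No defining marker of smooth muscle, fibroblasts or endothelium was at 0 in a whole group.

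Between genotypes, all 8 smooth muscle and all 8 fibroblast markers had a difference below 0 in both conditions, with none past the threshold. The medians were -0.86 and -0.47 in NEC, against 0.01 over all genes, and -0.87 and -0.95 in control, against 0.04. Markers of enteric neurons and glia, where Piezo2 is known, summed to 47.1 to 70.9 in flox control, 36.5 to 58.0 in CKO control, 35.7 to 53.7 in flox NEC and 32.4 to 45.1 in CKO NEC. Enteroendocrine markers, also of interest for Piezo2, summed to 189 to 287, 140 to 171, 80.5 to 121 and 60.1 to 116 in the same order. That sum is mostly Sct and Pyy, the genes of the hormones secretin and peptide YY. In flox tissue Sct fell by 2.20 with NEC (limma adjusted p = 3.79e-04) and Pyy by 1.48 (0.00141), while Chgb, a granin of secretory granules, rose by 0.63 (limma adjusted p = 0.0202). In CKO tissue 2 of the 5 tested fell and none rose. In whole tissue, fewer cells of a type and less RNA per cell cannot be told apart, and the part of cell makeup in the values of the channel genes was not tested.

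**Figure D5:**
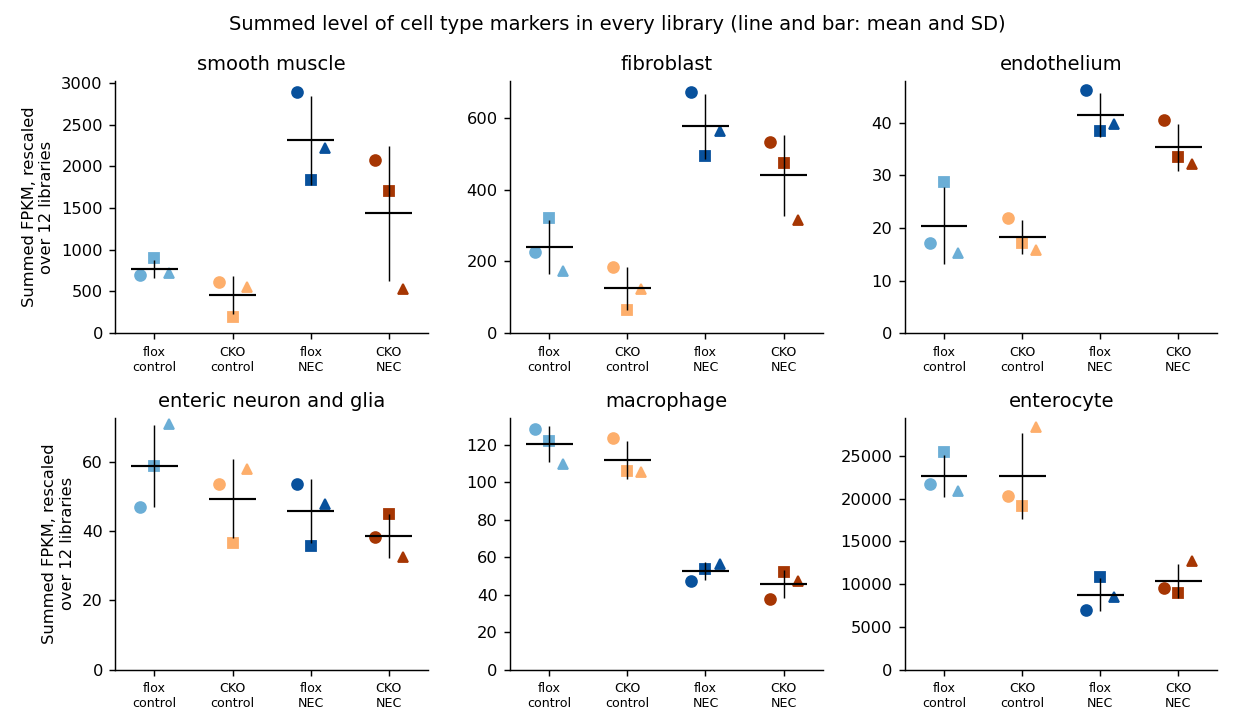
Summed rescaled FPKM (y axis, linear, from 0) of the marker genes of 6 cell types in each library, for the 4 groups; symbols are libraries 1, 2 and 3, and the line and bar are the mean and SD. Smooth muscle, fibroblast and endothelial sums are higher in flox NEC than in flox control, the enterocyte and macrophage sums are lower in all NEC than in all control libraries, and CKO NEC library 3 has 529 for smooth muscle. Most of the macrophage sum is Csf1r, at 59.9 to 79.3 in flox control and 18.7 to 23.0 in flox NEC. Of the 6 macrophage markers 2 have a change above 0 in flox, against their sum. Mrc1 is higher in all flox NEC than in all flox control libraries, and Adgre1 overlaps (0.419 to 1.01 in flox control, 0.690 to 1.39 in flox NEC).

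The genes nearest to Piezo1 in profile were found by the root mean square distance between log2(rescaled FPKM + 1) values, each centred on its own mean, over the 12 libraries and 12546 genes. They were Lama2 (0.14) and Reln (0.14), which encode the laminin α2 chain and reelin, both of the extracellular matrix, then Soga1 (0.16), Myocd (0.17), which encodes the smooth muscle coactivator myocardin, and Col4a1 (0.17), a basement membrane collagen. Mean Lama2 was 0.389 ± 0.130 (SD, n = 3) rescaled FPKM in flox control, 0.200 ± 0.0853 in CKO control, 3.39 ± 0.528 in flox NEC and 2.27 ± 0.474 in CKO NEC. Mean Myocd ran 0.465, 0.444, 3.27 and 2.03 in the same order. The distance mostly reads the difference between the conditions, which the 12 libraries share. Among the channel genes Pkd1 was nearest to Piezo1 (0.34, place 319 in the order of all genes), followed by Tmem63a (0.39, place 610) and Tmem63b (0.43, place 855), and Trpm7 was furthest of those compared (0.79, place 5953).

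Other channels gated by stretch or swelling, form a list of 28 drawn up beside the 10. In flox tissue 14 were tested, and 4 rose and 2 fell with NEC (median of -0.09, against 0.01 over all genes), where 28.6% of all genes rose and 27.7% fell. The rising share is near that of all genes. Cftr, the chloride channel of crypt epithelium, had a mean of 2.67 ± 0.604 in flox control and 14.4 ± 1.86 in flox NEC, a rise of 2.07 (limma adjusted p = 1.14e-04). Scnn1a, the α subunit of the epithelial sodium channel, fell by 1.69 (limma adjusted p = 1.90e-04) and Lrrc8a, the core of the volume-regulated anion channel, fell by 1.13 (3.56e-04). The gap junction gene Gja1 rose by 0.68 (limma adjusted p = 0.00751). In CKO tissue 12 were tested, and 3 rose and 2 fell (median of -0.11), where 17.4% of all genes rose and 20.3% fell. Cftr rose by 1.66 there (limma adjusted p = 0.00136), Panx1, a large-pore channel that releases ATP, rose by 0.70 (0.0109), and Lrrc8a and Scnn1a fell by 1.07 and 1.46 (both 0.00354). Between genotypes none of these channels passed in either condition.

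Of 20 further subunits and partners, 12 were tested in each comparison. With NEC in flox tissue 4 rose and 1 fell (median of -0.01), where 28.6% of all genes rose and 27.7% fell. Bicc1, an RNA-binding protein linked to polycystin expression, rose by 1.40 (limma adjusted p = 3.48e-04), and Atp2a2, the SERCA2 calcium pump that binds Piezo1, rose by 1.03 (9.81e-04). Stim1, the calcium sensor of the endoplasmic reticulum, rose by 0.93 (limma adjusted p = 0.00210), and Kif3a, a kinesin needed for cilia, fell by 0.48 (0.00997). In CKO tissue 3 rose and 1 fell (median of 0.23), where 17.4% and 20.3% of all genes did. Bicc1 rose by 0.98 (limma adjusted p = 0.0107), Atp2a2 by 0.64 (0.0211) and Stim1 by 0.40 (0.0259), while Orai1, the pore of store-operated calcium entry, fell by 0.57 (0.0219). Mdfic, an auxiliary subunit of PIEZO channels, differed by 0.04 in flox and 0.19 in CKO and did not pass in either. None of the 12 passed between genotypes. The smallest p-values there belonged to Bicc1 in NEC, which differed by -0.49 (limma adjusted p = 0.840), and to Orai1 in control, which differed by 0.47 (limma adjusted p = 0.104).

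Some exons of the channel genes share bases with genes on the other strand, and the sources used here do not say how the authors' counting used strand. Piezo1 shares 2441 bases (24.6% of its exon length) with Ctu2, a tRNA-modifying enzyme gene with 196 reads per library on average. Ctu2 differed by -0.03 with NEC in flox and by 0.19 in CKO and did not pass, while Piezo1 rose. Tmem63b shares 106 bases (2.08%) with Mrpl14, which fell by 1.33 in flox (limma adjusted p = 7.75e-04). Pkd1 shares 693 bases (3.98%) with Tsc2, which rose by 0.30 in flox (limma adjusted p = 0.0302). Kcnk2 shares 604 bases (12.2%) with A430027H14Rik, at about 1 read per library. These 3 better measured neighbours were chosen after values had been seen.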

How the data were processed

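Total RNA from intestinal tissue was made into libraries with the NEBNext Ultra II kit, per the labels' protocols. The authors deposited FPKM values for 54532 genes in 2 tables of 6 libraries, with coordinates and gene lengths. The sources used here name no aligner, counter or build. Coordinates of 53499 of 54409 matched genes (98.3%) equal those of GENCODE M21 on GRCm38, which all 10 channel genes do. The deposited length of Piezo2, 14566 bases, is below its 17162 bases of exon in M21. For the other channel genes the 2 lengths are equal. FPKM here uses the deposited lengths.

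FPKM times length fell on whole multiples of 1 step per library for 100% of values (tolerance 0.05), which gave the reads per gene, 13057724 to 16821130 in all. The step showed that the authors scaled the tables separately: the deposited NEC values sit 0.15 log2 above a scaling shared by the 12 libraries. FPKM was therefore also rescaled by median-of-ratios factors over the 12 libraries.

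Tests used log2(FPKM + 1), which understates the change of low genes. A gene entered a fit where 3 or more of its libraries reached FPKM 1. Models were fitted by limma 3.58.1 (R 4.3.3, moderated, with trend) with Benjamini-Hochberg adjustment and a threshold of 0.05. Genotypes and the interaction were compared on deposited FPKM, conditions on rescaled FPKM. Alternatives were a pseudocount of 0.1, no filter, a replicate block, limma-voom on the recovered reads, equal medians, the deposited scaling, and leaving out each library. The scripts were tested on simulated data.

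All 10 channel genes are named. Of the other channels and partners, up to 4 per comparison with the smallest p were named, and the 5 genes nearest to Piezo1. Mdfic and the genes that share exon bases with a channel gene were added after values were seen. The channel genes and all lists were chosen with earlier results of these data known. Other work used Python 3.11.15, numpy 2.4.6, pandas 2.3.3 and matplotlib 3.10.9.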

Additional observations from a re-analysis of the deposited data

How the results depend on the processing

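Between genotypes in control tissue 1 gene passed in the fit as reported, 0 with no filter, 903 with a replicate block, 360 with limma-voom on the recovered reads, and 0 to 830 when 1 library was left out (830 without flox control library 3, 0 without any other). In NEC tissue the number was 0 in every fit of all 6 libraries, and 0 to 1 with 1 left out (1 without flox NEC library 3 or CKO NEC library 1 or 3). The interaction had 181 genes, 41 with no filter, 24 with equal medians, 170 with the replicate block, 160 with limma-voom, and 0 to 646 with 1 library left out (646 without flox control library 3, 307 without CKO control library 3, 28 without CKO NEC library 3 and 0 to 2 otherwise). No channel gene passed in any of these genotype or interaction fits. NEC against control gave 7772 genes in flox (7173 with the block, 7887 with limma-voom) and 5058 in CKO (3025 to 4422 with 1 library left out, the lowest 3 without CKO control library 2 or CKO NEC library 1 or 2, and 3831 with no filter, 5172 with limma-voom). The replicate numbers share only a number in the labels: the correlations of deviations between libraries of the same number were -0.12 to 0.36, and not every library fitted best with its own number.

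Some small differences changed sign. The interaction of Pkd1, at -0.0040, became 0.058 with a pseudocount of 0.1, 0.079 with limma-voom and 0.034 with equal medians, and lay between -0.18 and 0.23 with 1 library left out. With 1 library left out the interaction ran from -0.053 to 0.18 for Piezo2, from -0.13 to 0.20 for Pkd2 and from -0.29 to 0.0055 for Trpc1. The genotype difference ran from -0.023 to 0.062 for Tmem63a and from -0.081 to 0.082 for Tmem63b in NEC, and from -0.22 to 0.031 for Piezo1 and from -0.030 to 0.18 for Trpm7 in control. None of these passed the test. The causes were not tested. Where 1 library was left out, fewer libraries were fitted. Trpv4, Kcnk2, Trpc1 and Piezo2 rest on few reads in control tissue (5 to 202 per library), which limits what can be told of them.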
